A study of Mus musculus with 4 samples.

Results

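The 9 genes described here encode nuclear proteins that take part in the choice and expression of odorant receptor genes. They are the 4 early B-cell factors Ebf1, Ebf2, Ebf3 and Ebf4, the homeodomain proteins Lhx2 and Emx2, the LIM-domain binding protein Ldb1, the chromatin remodelling subunit Bptf and the zinc finger protein Bcl11b. The rows were found by gene symbol, and all 9 symbols were present among the 23337 symbols of the count files. All 9 passed the filter on low counts, which kept 15438 genes with a counts-per-million (CPM) value above 1 in at least 2 samples.

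RNA-seq was carried out on fluorescent cells sorted from the olfactory epithelium of 4 mice of mixed background, 1 mouse per sample. The 2 controls were heterozygous for Lmnb1 (Lmnb1+/-) and the 2 mutants lacked it (Lmnb1-/-). Lmnb1 encodes lamin B1, a component of the nuclear lamina. All 4 mice carried a Cre transgene driven by the Keratin 5 promoter, which in this epithelium is active in horizontal basal cells, and a Cre-dependent red fluorescent reporter. All 4 were given methimazole (50 mg/kg), which destroys olfactory epithelium, and recovered for 4 weeks. Horizontal basal cells and other stem and progenitor cells rebuilt the tissue, which was therefore a mosaic of recombined and other cells. Control 1 and mutant 1 were littermates of experimental group 1, and control 2 and mutant 2 were littermates of experimental group 2. Per the labels the experimental groups differed in treatment, parents, age and sex, while littermates shared these as well as sample preparation and sequencing. The mice were young adults when injected, and the exact age of each group is not used here. The sort collected every cell descended from a recombined stem cell, so each library held stem cells, progenitors, neurons and supporting cells in unknown proportions, and fewer cells of a type and less RNA per cell cannot be told apart in such a sample.

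Each olfactory sensory neuron transcribes a single odorant receptor allele. Ebf proteins bind a palindromic site first described in promoters of olfactory neuron genes, and Lhx2 binds a homeodomain site that often lies beside it in receptor promoters and enhancers. Ldb1 is recruited by Lhx2 and brings distant receptor enhancers together. Emx2 is needed for the normal expression of many receptors, Bptf is the large subunit of the nucleosome remodelling factor NURF and binds methylated histone H3, and Bcl11b acts in the choice between the 2 receptor classes.

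Libraries held 14833396 to 23704638 counts in genes. At 341 counts or more in every library, each of the 9 genes lay far above the level of 3 counts, which was 0.127 to 0.202 CPM. Reads outside annotated genes made up 39.4% of unique alignments in mutant 1 and 22.1% to 24.9% in the other libraries. A uniform background estimated from genes silent in the other libraries would account for 0.210% to 1.28% of the counts of each factor in mutant 1. Lmnb1 itself had 477 and 395 counts in the controls and 326 and 149 in the mutants. Its log2 fold change of -0.72 (SE 0.31) did not pass the edgeR test (adjusted p = 0.195), and the counts cover all exons while the deletion removes a single one. By PCR outside the deleted exon, the paper reported depletion of the Lmnb1 transcript in sorted mutant cells. It also reported that a small minority of fluorescent mutant cells still stained for lamin B1. The source of the remaining counts was not tested.

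In the GRCm38 (mm10) annotation, Ebf1 lies at chr11:44617317-45008091, Ebf2 at chr14:67233292-67430918, Ebf3 at chr7:137193673-137314445, Ebf4 at chr2:130295169-130370481, Lhx2 at chr2:38339281-38369733, Emx2 at chr19:59458372-59465357, Ldb1 at chr19:46031570-46045214, Bptf at chr11:107033081-107132127 and Bcl11b at chr12:107910403-108003602. Ebf3, Ldb1, Bptf and Bcl11b are on the minus strand. No 50-base stretch of exon was shared exactly between any pair of the 9 genes, so reads of the Ebf paralogs could be told apart at that length. Antisense transcripts overlap 8.79% of the exon bases of Emx2, 6.12% of Ebf2, 3.85% of Ebf3 and 3.84% of Ldb1. Whether counting used strand is not given in the sources used here, and reads in those overlaps are uncertain.

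The promoters of the factors were searched for the sites that the factors themselves bind, since several of them lay lower in the mutants. Promoter windows from RefSeq on GRCm38.p6, from 250 bases before to 50 bases after each start site, matched 8 of the 9 genes. Ebf2 had no window. The full Ebf palindrome, which is CCCNNGGG with a T added before and an A after it, was in 0.904% of all 32851 windows and in none of the factor windows. The inner CCCNNGGG occurs on both strands alike because it is its own reverse complement. It was in 13.7% of all windows and in 15.4% of the genes that had a window. Among the factors it was in windows of Ebf3, Bcl11b, Ldb1 and Lhx2. Ldb1 and Lhx2 had 3 and 2 windows, and not all of them held it. The Lhx2 window at the gene start held no match. The inner site was also in the window of Cnga2, the olfactory cyclic nucleotide-gated channel subunit, an example of a classic Ebf-regulated gene. It was in neither of the 2 windows of Adcy3, another such gene. Omp and Gnal, also classic Ebf-regulated genes, had no window. The matches are shown on the strand of the gene, with the matched bases in capitals.
Ebf3: acagcgccgctCCCGGGGGcttcgagtttt
Bcl11b: cctcccccctcCCCTTGGGtggaagtgcgc
Ldb1: ccctccgcccgCCCTGGGGcctccttcgga
Lhx2: ttgggaacacaCCCCGGGGggaagagacgt
Cnga2: caagggagagtCCCTTGGGgagcttgggag
These stretches lie at chr7:137314448-137314477 (21 bases upstream of the start site), chr12:108003600-108003629 (204 upstream), chr19:46039650-46039679 (47 upstream), chr2:38351298-38351327 (1 base downstream, with a second match overlapping it) and chrX:71991772-71991801 (66 upstream, plus strand). Bcl11b and Cnga2 shared the same 8 matched bases. The homeodomain core TAATTA, also its own reverse complement and present in 5.29% of all windows, was found only in the Emx2 window among the factors, 36 bases downstream of its start site. The windows of Ebf1, Ebf4 and Bptf held none of these letters.

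Per kilobase of exon, the factors formed an upper and a lower set. Mean RPKM (CPM per kilobase of exon, over the 4 samples) was 39.2 for Lhx2, 37.9 for Ebf2, 36.6 for Ebf4, 29.0 for Ldb1 and 26.6 for Ebf3. It was 10.3 for Emx2, 9.45 for Bcl11b, 9.01 for Ebf1 and 8.01 for Bptf. The lowest value of the upper 5 genes, 16.6 RPKM for Ebf4 in mutant 2, was above the highest value of the lower 4, 12.8 RPKM for Emx2 in control 1. Neighbours within each set overlapped over the 4 samples. Relative to the mean, the widest ranges were those of Ebf4, from 16.6 to 59.7 RPKM, and Bptf, from 4.51 to 11.4 RPKM, and the narrowest was that of Ldb1, from 27.3 to 32.7 RPKM.

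**Figure D1:**
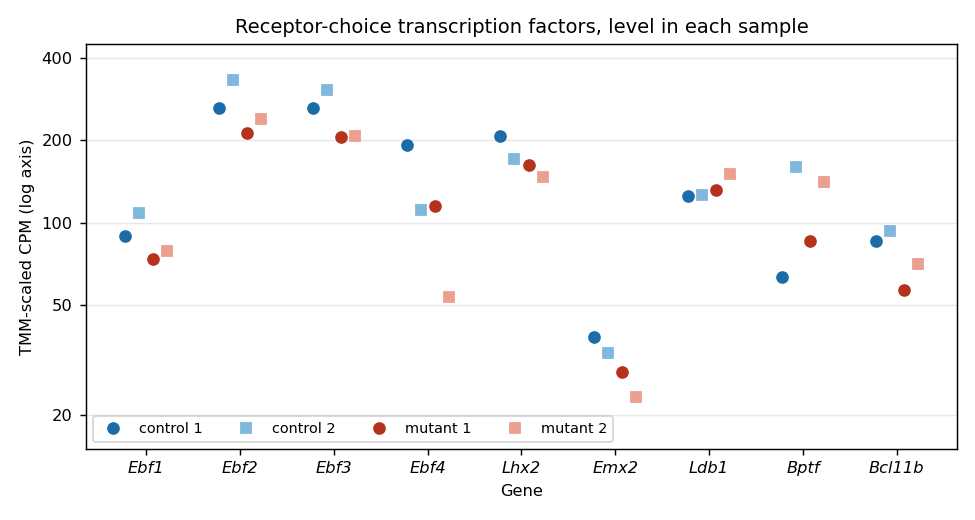
Level of each of the 9 factors in each of the 4 samples, as TMM-scaled CPM on a log axis; circles are experimental group 1 and squares experimental group 2. Ebf4 runs from 193 CPM in control 1 to 53.9 CPM in mutant 2, Bptf separates by experimental group, and the other factors vary less.

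The comparison of mutants with controls addressed whether loss of lamin B1 alters the factors that act on odorant receptor genes. It was made with the edgeR likelihood-ratio test across all genes, with the experimental group as a block and Benjamini-Hochberg adjustment at 0.05. Ebf4 and Bcl11b were lower in the mutants, and no factor was higher. Thus 2 of 9 were called lower, where 4.3% of all tested genes were, and 0 of 9 were called higher, where 1.28% of all genes were, or 5.58% in either direction. Without adjustment 5 of 9 factors had p under 0.05, all of them lower, where 9.62% of all genes were lower at that p and 15.9% were in either direction. The edgeR quasi-likelihood test called 1 of 9 lower (3.21% of all genes) and 0 higher (0.745%), and DESeq2 called 2 of 9 lower (3.45%) and 0 higher (1.14%). With no replicate block 0 of 9 were called in either direction, where 0% of all genes were lower and 0.0389% higher.

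The direction was shared beyond the genes that passed the test. Both mutants lay below both controls for 6 of the 9 factors, namely Ebf1, Ebf2, Ebf3, Lhx2, Emx2 and Bcl11b, where 13.3% of all genes did so. Both mutants lay above both controls for Ldb1 alone, where 12.6% of all genes did so. The mutant was below its own littermate in both experimental groups for 7 of 9, where 32.9% of all genes were. The median log2 fold change of the 9 factors was -0.39 and that of all tested genes was -0.01. This direction was not particular to the factors. Of 12 immature neuron markers, 6 had both mutants below both controls and 11 had a negative log2 fold change. Their median was -0.35. Ebf1, Ebf2 and Ebf3 varied almost in parallel, so their shared direction does not count as separate observations. Taken by experimental group, the median ratio of the factors was -0.35 in group 1 and -0.45 in group 2.

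**Figure D2:**
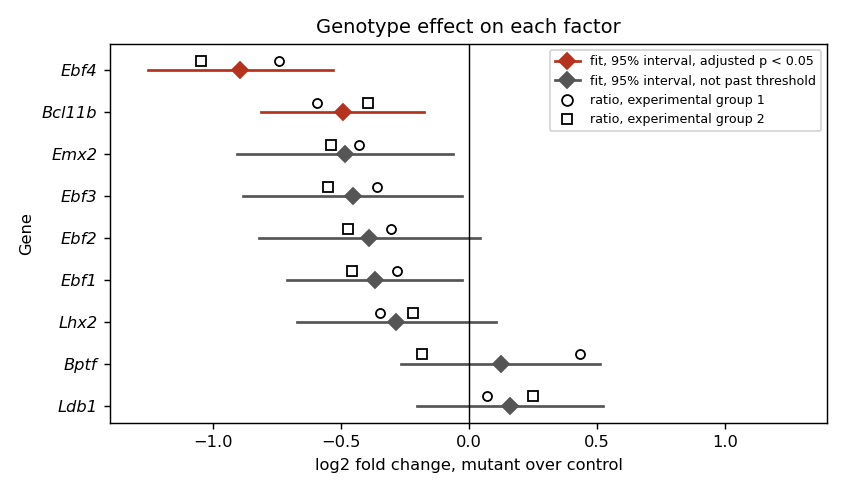
Log2 fold change of each factor, mutant over control, from the blocked edgeR fit (diamonds, with 95% intervals as lines) and the separate ratios of the 2 littermate pairs (open circles for experimental group 1, open squares for group 2). The fitted values run from -0.89 for Ebf4 to 0.16 for Ldb1, and the 2 open symbols lie on opposite sides of 0 for Bptf only.

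Among the Ebf genes, Ebf4 had the largest change. Ebf4 was at 193 CPM in control 1 and 111 CPM in control 2, and at 116 CPM in mutant 1 and 53.9 CPM in mutant 2 (TMM-scaled, from 4470, 2335, 2664 and 795 counts). The genotypes overlapped across experimental groups, since mutant 1 was slightly above control 2, but each mutant was below its littermate. The log2 ratio within the pair was -0.74 in group 1 and -1.04 in group 2. The fitted log2 fold change was -0.89 (SE 0.18, 95% interval -1.25 to -0.53, edgeR adjusted p = 0.000172), which puts the mutants at 53.9% of control. Ebf4 lay at the 5.71 percentile of the fold changes of all tested genes. The call was made in 8 of 9 other fits and was lost with no replicate block (-0.84). It was also lost when any single sample was left out and the block with it, where the value was -0.38 without control 1, -1.15 without control 2, -1.51 without mutant 1 and -0.36 without mutant 2.

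Ebf1 encodes the founding member of the family, also known for its part in B cell development. Its level was 89.8 and 108.7 CPM in the controls and 73.9 and 79.4 CPM in the mutants. Both mutants were below both controls, and the log2 fold change, -0.37 (SE 0.17), did not pass the edgeR test (adjusted p = 0.258).

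Ebf2 and Ebf3 were the more abundant paralogs in counts. Ebf2 was at 263 and 333 CPM in the controls and 213 and 240 CPM in the mutants. Ebf3 was at 263 and 305 CPM in the controls and 206 and 208 CPM in the mutants. In both cases the mutants lay below both controls. The log2 fold change was -0.39 (SE 0.22, edgeR adjusted p = 0.402) for Ebf2 and -0.45 (SE 0.22, edgeR adjusted p = 0.272) for Ebf3, and neither passed. DESeq2 did call Ebf3 lower, with an adjusted p of 0.0383.

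Ebf1, Ebf2 and Ebf3 varied almost in parallel over the 4 samples. The log2 ratio of Ebf2 to Ebf1 in counts was 1.55 and 1.61 in the controls and 1.53 and 1.60 in the mutants. That of Ebf4 to Ebf1 was 1.11, 0.03, 0.65 and -0.56 in the same order. In terms of the Euclidean distance between log2 profiles centred over the 4 samples, Ebf1, Ebf2 and Ebf3 lay 0.0686 to 0.156 apart, and Ebf4 lay 1.15 to 1.31 from each of them. This distance is a description of 4 libraries and carries no test.

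The 4 Ebf genes together gave 810 and 858 CPM in the controls and 608 and 582 CPM in the mutants. Ebf4 supplied 23.9% of the family counts in control 1 (95% Wilson interval 23.3 to 24.5) and 19.0% in mutant 1 (18.4 to 19.6). It supplied 13.0% in control 2 (12.5 to 13.5) and 9.26% in mutant 2 (8.67 to 9.89). These intervals cover counting error only. Within each experimental group the mutant had the smaller Ebf4 share, and control 2 had a smaller share than mutant 1. Per length of exon, Ebf4 was 44.1% and 27.1% of the family in the controls and 37.1% and 20.3% in the mutants.

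A call for Ebf4 and none for its paralogs does not show that they differed, so the 6 pairwise differences of log2 fold change were tested. The standard errors of these differences ignored the covariance between genes measured in the same libraries, so they are approximate. The estimated difference of Ebf4 was -0.52 from Ebf1 (SE 0.25, 95% interval -1.02 to -0.03), -0.50 from Ebf2 (SE 0.29, -1.07 to 0.06) and -0.44 from Ebf3 (SE 0.29, -0.999 to 0.12). The edgeR estimates gave adjusted p-values over the 6 pairs of 0.234, 0.240 and 0.249, and none passed. With quasi-likelihood standard errors in edgeR the same 3 differences had adjusted p-values of 0.0281, 0.0281 and 0.0483, so the call depended on how the spread was estimated. Among Ebf1, Ebf2 and Ebf3 the differences were -0.08 to -0.02, with intervals that reached from -0.67 to 0.54.

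**Figure D3:**
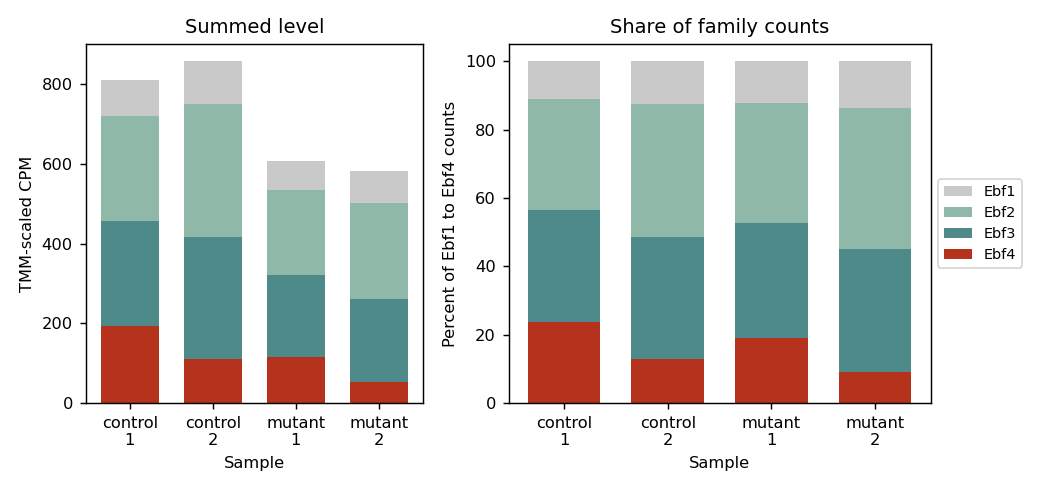
Stacked TMM-scaled CPM of the 4 Ebf genes in each sample (left) and their shares of the family counts in percent (right). The family total is 810 and 858 CPM in the controls and 608 and 582 CPM in the mutants, and the Ebf4 share is smallest, 9.26%, in mutant 2.

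Bcl11b was the other factor called lower. It was at 85.7 and 93.2 CPM in the controls and 56.9 and 71.0 CPM in the mutants, from 1982, 1957, 1311 and 1048 counts. Both mutants were below both controls. The log2 fold change was -0.49 (SE 0.16, 95% interval -0.81 to -0.17, edgeR adjusted p = 0.0454), or 71.1% of control, with ratios of -0.59 in group 1 and -0.39 in group 2. This call was marginal and was made in only 2 of 9 other fits of the data, with adjusted p-values of 0.0785 by the edgeR quasi-likelihood test and 0.137 by DESeq2. It was also lost without any single sample, at -0.62 to -0.34. Its paralog Bcl11a was at 47.7 and 43.4 CPM in the controls and 40.2 and 34.9 CPM in the mutants, with a log2 fold change of -0.28 (SE 0.19) that did not pass (edgeR adjusted p = 0.511).

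Bcl11b is also expressed by T cells and Ebf1 by B cells, which the Tomato gate should leave out. The summed level of 7 T cell markers was 0.714 to 9.28 CPM, with 5 of the 7 at 0 in at least 1 library, against 56.9 to 93.2 CPM for Bcl11b. The summed level of 7 B cell markers was 1.71 to 7.11 CPM, against 73.9 to 108.7 CPM for Ebf1. Pax5 and Cd79a, which define B cells, had 0 counts in 3 libraries and 5 and 21 counts in mutant 1. The uniform background in mutant 1 was estimated at 1.80 counts per kilobase of exon, and its part in such low counts was not tested.

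Emx2 and Lhx2, the homeodomain factors, were lower in both mutants than in both controls without passing the test. Emx2 was at 38.5 and 33.6 CPM in the controls and 28.6 and 23.1 CPM in the mutants. Its log2 fold change was -0.48 (SE 0.21, edgeR adjusted p = 0.209). Lhx2 was at 207 and 172 CPM in the controls and 163 and 148 CPM in the mutants, and its log2 fold change was -0.28 (SE 0.20) at an edgeR adjusted p of 0.553. The intervals were -0.90 to -0.06 for Emx2 and -0.67 to 0.10 for Lhx2.

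The relatives of these homeodomain genes were mostly silent. Of 11 other LIM-homeodomain genes, Isl1 alone passed the filter on low counts, at 18.1 to 28.2 CPM, with a log2 fold change of 0.17 (edgeR adjusted p = 0.850). Emx1, the paralog of Emx2, was at 2.46 and 4.14 CPM in the controls and 2.60 and 1.02 CPM in the mutants (edgeR adjusted p = 0.682). The antisense gene Emx2os had 223 and 269 counts in the controls and 212 and 215 in the mutants, beside 890, 706, 659 and 341 counts for Emx2 in the same order.

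Ldb1 was the steadiest of the factors. It was at 126 and 127 CPM in the controls and 132 and 151 CPM in the mutants. The log2 fold change was 0.16 (SE 0.18, 95% interval -0.20 to 0.52, edgeR adjusted p = 0.777). Of 9 genes for other Ldb1 complex proteins, 8 passed the filter and 0 were called in either direction by the edgeR test, by its quasi-likelihood test or by DESeq2, and none had an unadjusted p under 0.05. Their median log2 fold change was -0.10. They include the single-stranded DNA-binding protein Ssbp2, which protects Ldb1 from degradation, at -0.11 (SE 0.18), Lmo4 at 0.09 (SE 0.18) and the ubiquitin ligase Rlim, which turns Ldb1 complexes over, at -0.03 (SE 0.19).

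Bptf did not have a common direction between the pairs. It was at 63.5 and 160 CPM in the controls and 85.8 and 141 CPM in the mutants. Both samples of group 2 were above both samples of group 1, and the ratio of mutant to control was 0.43 in group 1 and -0.18 in group 2. The fitted genotype effect was 0.12 (SE 0.20, 95% interval -0.27 to 0.51, edgeR adjusted p = 0.865). The effect of experimental group was called, at 1.03 (SE 0.20, edgeR adjusted p = 5.29e-06) in log2, group 2 over group 1.

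Ebf4 was the only other factor called between experimental groups, in the opposite direction. Its log2 difference, group 2 over group 1, was -0.95 (SE 0.18, edgeR adjusted p = 5.56e-06), beside -0.89 for genotype. The difference was -0.80 between the controls and -1.10 between the mutants. The other 7 factors had adjusted p-values of 0.315 to 0.737 for this contrast. Thus 2 of 9 were called between experimental groups, 1 lower and 1 higher in group 2, where 31.6% of all genes were called, 14% lower and 17.7% higher.

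Other genes of Bptf-type remodelling complexes also differed between experimental groups, with no call for genotype. Of 13 genes for NURF and related ISWI complexes, 9 were higher in group 2 and 0 were lower by the edgeR test. The ATPase Smarca5 was at 125 and 256 CPM in the controls and 134 and 251 CPM in the mutants, a group effect of 0.97 (adjusted p = 2.80e-05). The remodelling factor Rsf1 was at 35.7 and 80.0 CPM in the controls and 47.8 and 85.5 CPM in the mutants, a group effect of 1.00 (adjusted p = 2.48e-07). For genotype, 0 of the 13 were called in either direction by the edgeR test, its quasi-likelihood test or DESeq2, 1 had an unadjusted p under 0.05, and the median log2 fold change was 0.18.

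Exon length moved with the group contrast. When the tested genes were divided by exon length into 4 equal bins, in the longest bin, over 6679 bases, 33.0% were higher in group 2, with a median group effect of 0.29. In the shortest bin, up to 2701 bases, 7.15% were higher and the median was -0.29. Bptf, with 14081 exon bases, Bcl11b and Ebf1 to Ebf3 fall in the longest bin, and Ebf4, with 3236, falls in the second. The median genotype effect was -0.03 to 0.02 in all 4 bins. The part of length in the group effects of Bptf and Ebf4 was not tested.

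The partners that bind Ebf proteins directly gave no call. The zinc finger protein Zfp423, which can hold Ebf proteins inactive in immature neurons, was at 26.1 and 28.1 CPM in the controls and 22.1 and 23.5 CPM in the mutants, and its log2 fold change was -0.25 (SE 0.24) at an edgeR adjusted p of 0.720. Zfp521 was at 9.51 and 2.19 CPM in the controls and 5.46 and 2.98 CPM in the mutants, with ratios of opposite sign in the pairs, -0.79 and 0.43, and an edgeR adjusted p of 0.941.

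Of 17 other transcription factors of the olfactory lineage, 1 was lower and 2 were higher in the mutants. Uncx, a homeodomain factor of olfactory neurons, was at 89.6 and 105.7 CPM in the controls and 69.6 and 63.0 CPM in the mutants, and its log2 fold change was -0.55 (SE 0.17) at an edgeR adjusted p of 0.0254. Pax6, a regulator of basal and supporting cells, was higher by 0.50 (edgeR adjusted p = 0.0435), and Hes6, found in neuronal progenitors, was higher by 0.65 (edgeR adjusted p = 0.0337). The median of the 17 was 0.40, of opposite sign to the -0.39 of the 9 receptor-choice factors. Atf5, which links receptor expression to neuronal maturation, was at 946 and 614 CPM in the controls and 629 and 317 CPM in the mutants (log2 fold change -0.77, SE 0.26, edgeR adjusted p = 0.0602).

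Genes in which the Ebf site was first described were lower. All 4 of Omp, Adcy3, Gnal and Cnga2, which encode olfactory marker protein, adenylyl cyclase, the olfactory G protein and the channel subunit, were called lower, and the median log2 fold change was -1.32. DESeq2 called 2 of the 4 lower, and 0 were called with no filter on low counts or with no replicate block. Omp was at 9665 and 3267 CPM in the controls and 5359 and 912 CPM in the mutants (-1.35, SE 0.35, edgeR adjusted p = 0.00714). The medians of the 4 were -0.91 in group 1 and -1.72 in group 2, beside -0.74 and -1.04 for Ebf4. These genes are also mature neuron markers, and all 16 mature neuron markers listed for the sort were called lower, with the same median of -1.32. DESeq2 called 11 of these 16 lower, 7 were called with no filter and 0 with no replicate block.

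Odorant receptor genes, whose choice and expression these factors affect, passed the filter for 489 of 1100 symbols. A receptor could pass through the samples where it was high, so the tested set was partly selected by level. The edgeR test called 34 lower and 0 higher, where 4.3% and 1.28% of all tested genes were. The median log2 fold change was -0.96, with median ratios of -0.47 in group 1 and -1.28 in group 2. Of these receptors 104 had an unadjusted p under 0.05, all lower, where 9.62% of all genes were lower. The paper held that most receptors varied too much between samples for conclusions. The quasi-likelihood test called 11 lower and DESeq2 called 1, both with 0 higher. With background subtracted from mutant 1, the edgeR likelihood-ratio test called 43 lower and 0 higher. Their summed level was 2317 and 1755 CPM in the controls and 2029 and 703 CPM in the mutants.

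Marker levels along the neuronal lineage differed in both directions. Summed mature neuron markers were at 21014 and 9464 CPM in the controls and 11602 and 2807 CPM in the mutants. Summed immature neuron markers were at 3347 and 2680 CPM in the controls and 2658 and 2184 CPM in the mutants, with 3 of 12 called lower (Dcx, Stmn4 and Ddit3). Gap43, the standard marker of immature neurons, was at -0.35 in log2 fold change (SE 0.19) and missed the edgeR threshold (adjusted p = 0.351). Progenitor markers summed to 371 and 377 CPM in the controls and 500 and 555 CPM in the mutants, with 4 of 9 called higher.

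Lhx2 and Emx2 followed the sum of the immature neuron markers closely, although the 12 markers did not move alike. Tubb3 was the largest part of the sum in control 1, at 1242 CPM. Between experimental groups 2 of the 12 were called lower in group 2, Tubb3 (-1.11) and Stmn4 (-1.19). Another 2 were called higher, Dcx (0.84) and Dpysl3 (0.88). Per 1000 CPM of summed immature markers, Lhx2 was at 61.9 and 64.0 CPM in the controls and 61.3 and 67.6 CPM in the mutants. Emx2 was at 11.5 and 12.5 CPM in the controls and 10.7 and 10.6 CPM in the mutants. The highest of the 4 values was 1.10 times the lowest for Lhx2 and 1.19 times for Emx2, against 1.47 to 1.58 times for Ebf1 to Ebf3, 1.63 for Bcl11b and 2.34 for Ebf4. These ratios share libraries and scaling with the marker sums and are descriptions.

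Over the 11 marker lists compared, the Ebf4 profile was nearest to the motile ciliated cell markers (distance 0.154), then to the odorant receptors (0.436), the mature neuron markers (0.826) and the immature neuron markers (0.884). Summed ciliated cell markers were at 448 and 285 CPM in the controls and 310 and 138 CPM in the mutants. Per 1000 CPM of them Ebf4 was at 431 and 390 CPM in the controls and 373 and 390 CPM in the mutants, a spread of 1.16 times, against 1.95 to 7.20 times for the other 8 factors. Foxj1, the regulator of motile cilia and the most abundant of these markers, was at 166 and 112 CPM in the controls and 121 and 49.9 CPM in the mutants. Foxj1 and Ccdc40 made up most of the sum, with group effects of -0.92 and -1.04. Mature neuron markers were also lower in group 2, with a median group effect of -1.36. Which cell type gave the transcripts of the ciliated list was not tested. Ccdc39 was at 26.6 and 33.9 CPM in the controls and 17.0 and 24.2 CPM in the mutants. Its group effect of 0.43 was the 1 positive value among the 5 markers, against -0.95 for Ebf4. The likeness is therefore to the sum and not to each marker. Per 1000 CPM of summed receptor genes Ebf4 was at 83.4 and 63.4 CPM in the controls and 56.9 and 76.7 CPM in the mutants, a spread of 1.46 times, against 2.33 to 7.33 times for the other 8 factors. Per 1000 CPM of summed mature markers Ebf4 spread 2.09 times, from 9.19 in control 1 to 19.2 in mutant 2, and the other factors spread 4.50 to 16.7 times. The part of these markers in the change of Ebf4 was not tested.

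The Bcl11b profile was nearest to the microvillar cell markers, at a distance of 0.0265. These 5 markers summed to 142 and 158 CPM in the controls and 95.7 and 120 CPM in the mutants, and 1 of 5 was called lower, Trpm5, the channel of tuft-like microvillar cells. The 5 did not move alike. Trpm5 was at 88.7 and 76.4 CPM in the controls and 49.0 and 53.4 CPM in the mutants. Cftr was at 11.8 and 45.1 CPM in the controls and 14.1 and 32.9 CPM in the mutants. Foxi1 had a log2 fold change of 0.10, and the other 4 were negative. The likeness is therefore to the sum and not to each marker. Per 1000 CPM of the summed markers Bcl11b was at 604 and 589 CPM in the controls and 594 and 593 CPM in the mutants, a spread of 1.03 times. The spread was at most 1.24 times for Ebf1 to Ebf3, whose distances from this list, 0.193 to 0.221, were also their smallest to any list. The part of these markers in the change of Bcl11b was not tested.

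**Figure D4:**
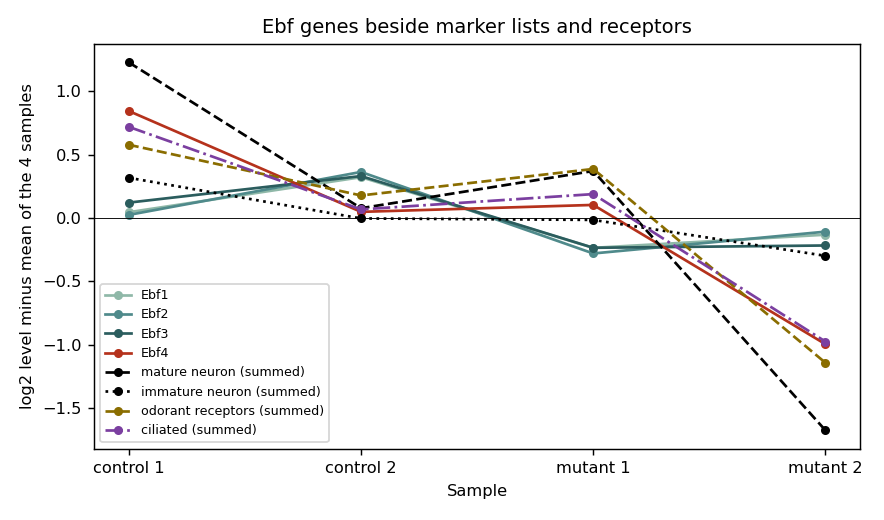
Log2 level of each Ebf gene and of the summed mature neuron markers, immature neuron markers, odorant receptors and motile ciliated cell markers, minus the mean of the 4 samples; lines only join the points of a gene or list. Ebf1 to Ebf3 run together, 0.0686 to 0.156 apart, while Ebf4 lies closest to the ciliated cell markers (0.154) and is, like all 4 list sums, highest in control 1 and lowest in mutant 2.

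The gate took only Tomato-positive cells of the Keratin 5 Cre lineage, which should leave out fibroblasts and leukocytes, yet some of their markers were measured. Fibroblasts can express Ebf1, Ebf2 and Ebf3, and summed stromal markers were at 995 and 300 CPM in the controls and 642 and 498 CPM in the mutants. Dcn, the largest part of the sum in mutant 2, was at 165 and 190 CPM in the controls and 194 and 413 CPM in the mutants. Col1a1 was at 280 and 32.7 CPM in the controls and 166 and 22.6 CPM in the mutants. Of the 7 stromal markers, 6 had a negative log2 fold change and 2 were called lower, Col1a1 and Col1a2. The part of fibroblasts in the levels of Ebf1 to Ebf3 was not tested. Horizontal basal cell markers had 2 of 7 called higher (Krt15 and Egfr) and motile ciliated cell markers 3 of 5 called lower (Foxj1, Tekt1 and Ccdc40). None of the 7 sustentacular, 6 ensheathing glia or 7 myeloid markers tested was called by the edgeR test. At an unadjusted p under 0.05 there were 1, 1 and 0, and DESeq2 called 2 sustentacular markers higher and the quasi-likelihood test 1.

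**Figure D5:**
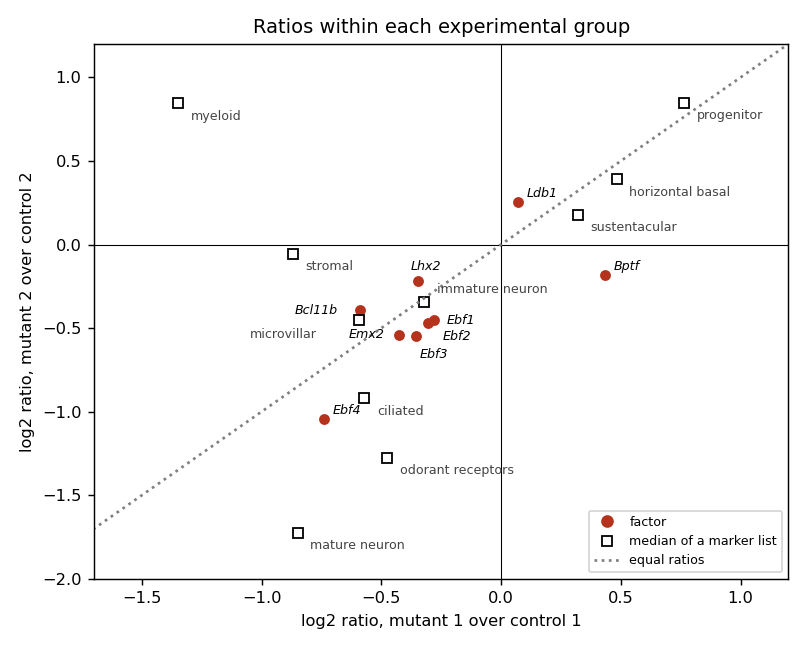
Log2 ratio of mutant to control in experimental group 1 (horizontal) and group 2 (vertical) for the 9 factors (filled circles) and the medians of marker lists (open squares); the dotted line marks equal ratios. Ebf4 lies at -0.74 and -1.04, nearest to the ciliated cell markers at -0.57 and -0.92 and further from the mature neuron markers at -0.85 and -1.73, Bcl11b lies beside the microvillar cell markers at -0.60 and -0.45, Ebf1 to Ebf3, Lhx2 and Emx2 lie around the immature neuron markers at -0.32 and -0.35, and Bptf has ratios of opposite sign.

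The genes with profiles most like each factor over the 4 samples were found by the same distance among all tested genes. For Ebf4 these were the DNA-binding protein gene Mypop (distance 0.0307) and the co-chaperone gene Sgtb (0.0344), and 65 genes lay within 0.2. Sgtb was at 78.0 and 45.6 CPM in the controls and 46.2 and 22.2 CPM in the mutants, the same order as Ebf4. For Bcl11b they were Cmtm4 (0.0415) and the ciliary transport gene Wdr19 (0.0695), with 93 genes within 0.2. Ebf1 was most like Ift57, another ciliary transport gene, and Etv3, Ebf2 most like Maff and the G protein gene Gnao1, and Ebf3 most like 1700040L02Rik and Efha2. Lhx2 was most like Kif24 and Exog, Emx2 most like the cadherin gene Celsr3 and Sgsm2, Ldb1 most like Rcan1 and Pgd, and Bptf most like Raph1 and Nudcd1. Within 0.2 there were 462 genes for Lhx2 and 548 for Ldb1, so such likeness over 4 libraries was common.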

How the data were processed

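RNA was depleted of ribosomal RNA and sequenced. Per the submitters' processing notes, Bowtie2 2.0.6, TopHat2 2.0.7 and HTSeq were used with genome build mm10. The authors deposited raw counts of reads per gene symbol for each of 4 samples, with no normalization; the gene annotation and strand setting are not given in the sources used here. Tally lines that name no gene were left out: reads outside genes were 22.1% to 39.4% and ambiguous reads 0.840% to 1.20% of unique alignments. Counts were fitted with edgeR 4.0.16 in R 4.3.3 (TMM factors, genes with more than 1 CPM in at least 2 samples, genotype and experimental group as terms, likelihood-ratio test, Benjamini-Hochberg threshold 0.05 over 15438 genes), and the script was tested on simulated data. RPKM used the exon union of GENCODE genes on GRCm38. Replicate numbers pair the samples, because the labels give littermates of 1 experimental group the same number; deviations of same-numbered samples correlated at r = 0.52 over 15438 genes. DESeq2 1.42.0, the edgeR quasi-likelihood test, other scalings and filters and left-out samples were tried as alternatives. No other columns of per-sample values were present. The members and gene lists were chosen with earlier results of these data known. Named genes were the 9 factors, Lmnb1, list genes past the threshold, Omp and Gap43, and the 2 nearest profiles of each factor; further list genes (such as Zfp423, Bcl11a, Isl1, Atf5, Smarca5, Rsf1 and Emx2os) were named for their role or after their values were seen. Ratios of the factors to ciliated and microvillar marker sums were added after the values were seen.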

Additional observations from a re-analysis of the deposited data

Results flagged for a closer look

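Bptf had log2 ratios of mutant to control of opposite sign in the littermate pairs, 0.43 in experimental group 1 and -0.18 in group 2. The median ratios of the Ebf-binding zinc finger genes Zfp423 and Zfp521 were -0.51 and 0.085, that of Isl1, the single LIM-homeodomain gene tested besides Lhx2, was 0.34 and -0.00021, and that of the 7 myeloid markers was -1.35 and 0.85. These were picked out because the ratio or median had opposite signs in the 2 pairs. Isl1 hardly moved in group 2, and Zfp423 by itself was at -0.24 and -0.26, so the sign change of that median came from Zfp521. With 1 control and 1 mutant in each pair none of these differences was tested. In mutant 1, 39.4% of unique alignments lay outside annotated genes, above the level of both controls (23.8% and 24.9%). Mutant 1 also had fewer genes at 0 counts, 1603 against 5173 to 6053 in the other libraries. Genes with low counts may therefore carry background in mutant 1. With 2 samples per genotype no sample could be checked as standing apart from its own genotype.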

How the results depend on the processing

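Over 9 alternative fits, the log2 fold change of Ebf4 stayed between -0.89 and -0.83 and passed the threshold in 8 of 9, the exception being the fit with no replicate block (-0.84). Bcl11b stayed between -0.49 and -0.43 and passed in 2 of 9. It did not pass by the edgeR quasi-likelihood test (-0.49), by DESeq2 (-0.48), with RLE size factors (-0.48), with library totals only (-0.43), with no filter on low counts (-0.47), with background subtracted from mutant 1 (-0.48) or with no replicate block (-0.48). Members called lower numbered 1 in the quasi-likelihood, RLE, library-total, unfiltered and background-subtracted fits and 0 with no replicate block; DESeq2 called Ebf4 and Ebf3 (-0.44). The quasi-likelihood test brought the differences of Ebf4 from Ebf1, Ebf2 and Ebf3 (-0.52, -0.50 and -0.44) past the threshold. It called 115 of all genes higher in mutants (197 by the likelihood-ratio test), 0 lineage factors higher, 1 horizontal basal and 1 sustentacular marker higher and 11 odorant receptors lower (34 by the likelihood-ratio test). DESeq2 called 2 of the 4 Ebf-site genes lower, 6 horizontal basal, 2 sustentacular and 1 stromal marker higher and 1 odorant receptor lower. With no filter, 7 mature neuron markers, 0 Ebf-site genes and 0 lineage factors were lower and 1 lineage factor higher; with library totals 0 lineage factors were lower; thinned to the smallest library, 1 was higher. With no replicate block, 0 of all genes were lower and 6 higher, every list had 0 calls, and 348 genes but 0 factors had an unadjusted p under 0.05, against 2460 and 5 with the block. The 2 calls between experimental groups, Ebf4 and Bptf, were made in every blocked fit.

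Leaving out a single sample breaks a pair, so those fits have no block and the lone sample is assumed to vary like the others. Genes called then ranged from 0 to 5 lower and 3 to 33 higher, factors called lower from 0 to 0, odorant receptors lower from 0 to 2, myeloid markers lower from 0 to 1, and every other list had 0 calls. Ebf4 ranged from -1.51 (without mutant 1) to -0.36 (without mutant 2), Bcl11b from -0.62 to -0.34 and Bptf from -0.49 to 0.88. Directions reversed for Bptf without control 1 (-0.49) or mutant 2 (-0.36). The differences of Ebf4 from Ebf1, Ebf2 and Ebf3 became 0.12, 0.17 and 0.17 without control 1 and 0.03, 0.09 and 0.07 without mutant 2, with full ranges of -1.18 to 0.12, -1.19 to 0.17 and -1.05 to 0.17. That of Ebf2 from Ebf1 became 0.013 without control 2 and 0.011 without mutant 1 (range -0.058 to 0.013), and that of Ebf3 from Ebf2 became 0.019 without mutant 2 (range -0.14 to 0.019). With no block, experimental group enters the genotype contrast, and the group effect was -0.95 for Ebf4 and 1.03 for Bptf. The part of group in these shifts was not tested beyond the leave-outs. Scaling moved the median of all genes by 0.01 with RLE and 0.06 with library totals. Depth does not limit the factors, which have at least 341 counts in each library, but 2 mice per genotype limit every test.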
